A study of Mus musculus with 24 samples.

Results

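Messenger RNA of mouse stromal cells was compared between tumours whose human cancer cells carried the GAL hairpin shGAL #73_4 and tumours whose cancer cells carried the non-targeting control PLKO, on a diet rich in palmitic acid (the PA-rich diet). The comparison used 6 of the 24 arrays of the series, 3 with shGAL and 3 with PLKO, chosen by the hairpin and diet in the sample titles. It was read over all 11844 genes whose probe set was bright enough to test. The cancer cells were SCC25, an established human line of oral squamous carcinoma, grown as orthotopic xenografts in NSG mice, an immunodeficient strain that lacks mature lymphocytes. Per the labels, the RNA was that of a neural cell fraction of the xenograft stroma and was purified on magnetic beads. How that fraction was separated is not stated there. GAL was targeted by 1 hairpin sequence, so an effect of that sequence and an effect of losing galanin cannot be told apart. The arrays within a group are described as technical replicates, and the number of animals behind them is not stated. All p-values measure no more than the scatter of such arrays.

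Galanin is a neuropeptide that acts on G protein-coupled receptors on neurons and other cells, and it is released by sensory nerves and by some carcinomas. Oral epithelium reacts to injury with alarmins of the interleukin-1 family, with antimicrobial proteins and with proteins of the cornified envelope. Immediate early genes, such as those of the Egr, Jun and Nr4a families, are transcription factor genes that growth factors and stress switch on within minutes. Palmitic acid is a saturated fatty acid that cells burn in mitochondria after import by carnitine palmitoyltransferases.

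All values are log2 levels made by robust multi-array averaging (RMA), and a change is the mean of the shGAL arrays minus the mean of the PLKO arrays. The 6 arrays had medians between 6.77 and 6.81. Each array correlated with those of its own group at 0.994 to 0.995 and with those of the other hairpin at 0.982 to 0.987, over the 11844 genes tested. The 3' minus 5' difference of the actin control probe sets, a sign of RNA integrity, lay between -0.20 and -0.06 in the shGAL arrays and between -0.21 and -0.19 in the PLKO arrays. The markers did not bear out a purely neural fraction: 16 of 16 keratinocyte markers measured were bright enough to test, against 9 of 14 Schwann cell markers, 7 of 13 myelin genes and 8 of 16 neuronal markers. Snap25, Nefl, Nefm, Gfap and S100b were dim in both groups. Other nerve and Schwann cell markers were bright, with Erbb3 at 10.99 ± 0.04 (SD, n = 3) in the PLKO arrays, Pmp22 at 10.98 ± 0.02, Sncg at 9.12 ± 0.07, Tubb3 at 8.89 ± 0.17 and Ngfr at 8.34 ± 0.08. The keratins Krt5 and Krt14 averaged 12.90 and 13.22 in the PLKO arrays, and the haemoglobin gene Hba-a1 13.27. Of the stromal lists, 15 of 15 pan-endothelial genes and 5 of 11 fibroblast markers were bright enough to test. The name stromal cells is taken from the labels and not from the markers. Which cells gave each change was not tested. Whether transcripts of the human cells bound to the mouse array was not tested. Scan batch 2 held replicate 3 of both hairpins, and the other 4 arrays were scanned in 4 further batches. The other batches of these arrays are linked through arrays of further groups, so a fit with scan batch as a block was also made. For the genes with the greatest changes, the difference of the scan batch 2 pair, which has no test, and the change in the blocked fit are given. In bulk RNA, fewer cells of a type and less RNA per cell cannot be told apart.

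Of the 11844 genes, 1465 differed between shGAL and PLKO at an adjusted p under 0.05 (limma with Benjamini-Hochberg adjustment), which is 12.4% of those tested. Of these, 900 were higher with shGAL (7.6% of the genes tested) and 565 were lower (4.77%). The median size of a called change was 0.41. The larger changes were mostly rises: 45 genes rose by more than 1 and 5 fell by more than 1. Without PLKO replicate 3 the count was 968. With scan batch as a fixed block it was 1308, and 1107 of these were among the 1465 with the same sign. Of the called genes, 1451 had no overlap between the 3 shGAL and the 3 PLKO arrays, as had 38% of all genes tested. The scan batch 2 pair had the same sign in 1463. That pair is part of the compared arrays, so its sign was fixed in advance for the 1451 genes.

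**Figure D1:**
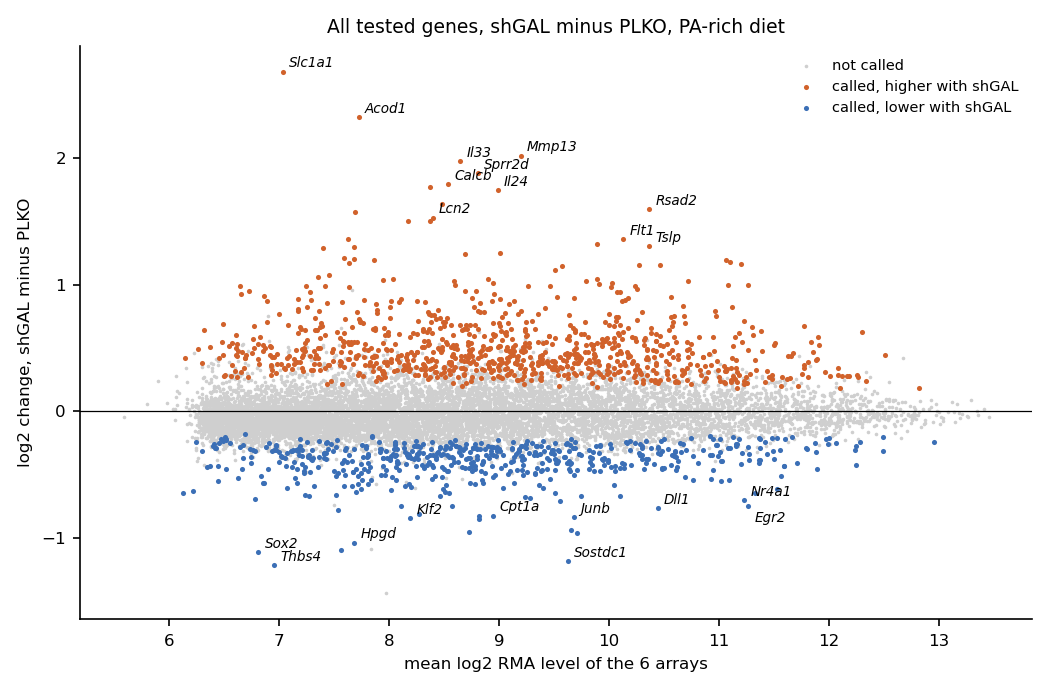
Change of each tested gene (vertical axis, log2, shGAL minus PLKO on the PA-rich diet) against its mean log2 level over the 6 arrays (horizontal axis). The 900 genes called higher are orange, the 565 called lower are blue and the rest are grey. The rises reach 2.68 for Slc1a1, which was dim without shGAL, and the called falls -1.21 for Thbs4.

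The rises with the greatest size came from several gene families. Slc1a1, which encodes a transporter that takes up glutamate and cysteine, read 8.20, 8.52 and 8.41 in the shGAL arrays. Its PLKO arrays read 5.78, 5.70 and 5.60, below the level of 6.27 that marked a dim gene. The groups without shGAL averaged 5.48 to 6.12, so Slc1a1 passed the dim filter only through its shGAL arrays. The change of 2.68 ± 0.23 (SE) is therefore given without a fold, and its call is not read as support. A second, dim probe set of Slc1a1 differed by 0.46. The scan batch 2 pair differed by 2.80 for Slc1a1 and by 1.54 for Calcb, and the blocked changes were 2.67 and 1.77. Calcb, which encodes the beta form of the sensory neuropeptide CGRP and has a near-identical relative, Calca, that was not measured here, read 7.79, 7.17 and 7.96 with PLKO and 9.38, 9.42 and 9.50 with shGAL. All 3 shGAL arrays lay above all 3 PLKO arrays, and the change was 1.79 ± 0.13 (adjusted p = 7.30e-09). Spire1, an actin nucleator, rose by 1.64 ± 0.14, and Pard6b, a cell polarity protein, rose by 1.58 ± 0.12. The transcription factor Ets1 rose by 1.25 ± 0.14. Tchh, the structural protein trichohyalin of the hair follicle's inner sheath, rose by 1.50 ± 0.27. The 20 greatest rises also held Prr9, which rose by 1.36, and the uncharacterised transcripts 9930012K11Rik, which rose by 1.77, and C030013C21Rik, which rose by 1.29.

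Among the genes that fell most, Sostdc1 encodes a secreted inhibitor of Wnt and BMP signals. Its PLKO arrays read 10.20, 10.19 and 10.25 and its shGAL arrays 8.94, 9.13 and 9.03, so the groups lay apart by more than 1 unit. The fall was 1.18 ± 0.11 (adjusted p = 3.11e-07), and a second probe set of Sostdc1 gave -1.19. The matrix protein gene Thbs4 read 8.34, 7.32 and 7.01 with PLKO and 6.48, 6.46 and 6.09 with shGAL, a fall of 1.21 ± 0.29 (adjusted p = 0.00694). The first PLKO array stood about 1 unit above the others, and without it Thbs4 was not called (adjusted p = 0.0659). Sox2, a transcription factor of progenitor cells and of repair Schwann cells, read 7.01, 7.53 and 7.56 with PLKO and 6.35, 6.03 and 6.38 with shGAL. The 3 shGAL arrays were near or below the dim level, and the fall was 1.11 ± 0.13. Hpgd, the enzyme that inactivates prostaglandins, fell by 1.04 ± 0.14. Crabp1, a retinoic acid binding protein, fell by 0.94 ± 0.12, and Gas1, a growth arrest protein, fell by 0.82 ± 0.10. Socs3, the feedback inhibitor of cytokine receptors, fell by 0.95 ± 0.17 (adjusted p = 5.23e-04). In scan batch 2 the pair differed by -1.22 for Sostdc1 and -0.88 for Hpgd, and the blocked changes were -1.23 and -1.20.

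**Figure D2:**
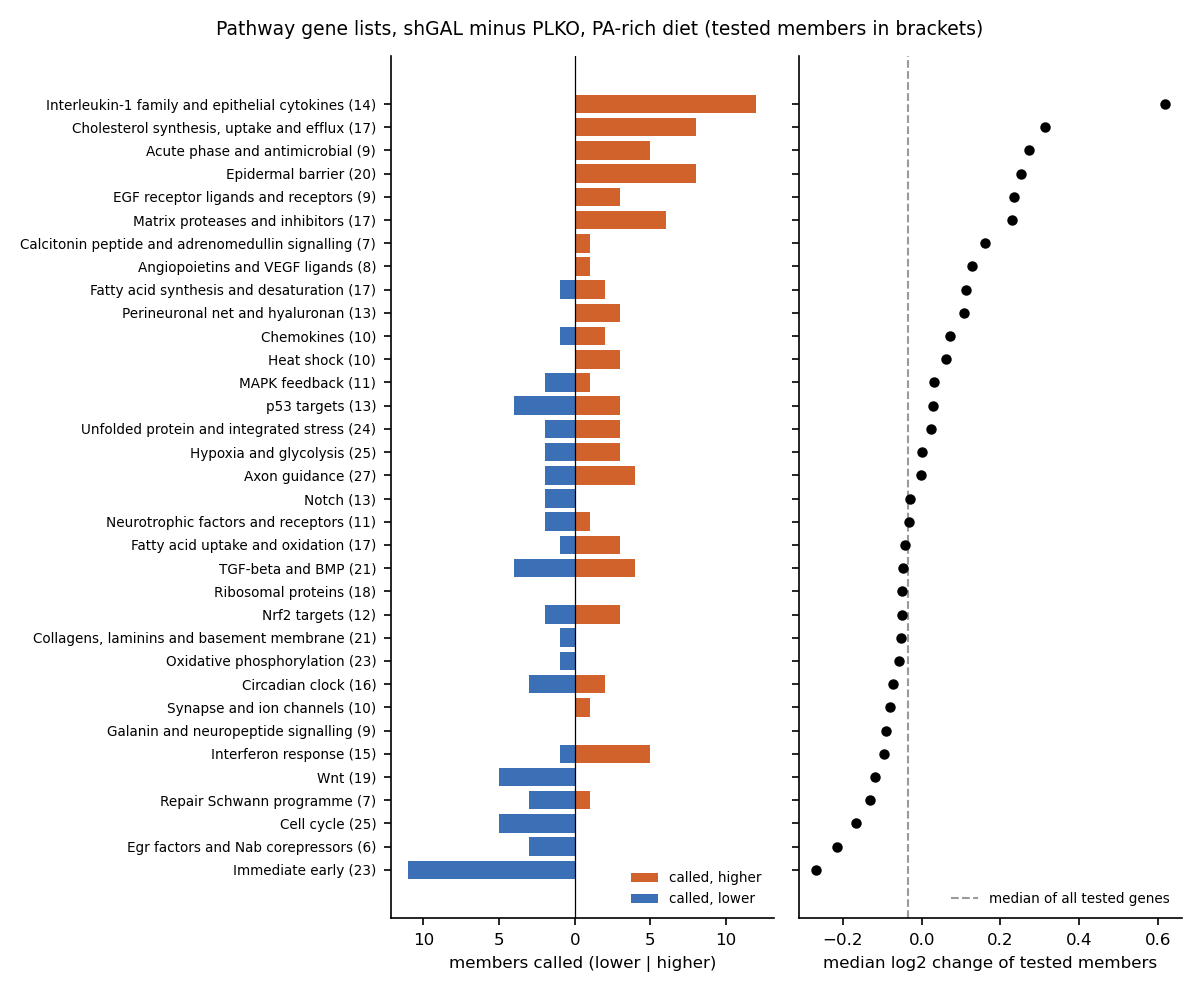
Members of 34 pathway lists called higher (orange) or lower (blue) with shGAL on the PA-rich diet (left, number of genes), and the median log2 change of the tested members of each list (right). The dashed line is the median of all 11844 genes, -0.04; cytokine genes of the interleukin-1 family list lie at 0.62 and immediate early genes at -0.27.

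Cytokine genes of the interleukin-1 family and the epithelium were mostly higher with shGAL. Of 14 tested members 12 were higher and 0 lower, against 7.6% of all genes called higher, and their median change was 0.62 against -0.04 for all genes. In this list and in the acute phase, barrier, protease and sterol lists below, 0 members were lower by limma even at an unadjusted p under 0.05, and in the immediate early, cell cycle and Wnt lists 0 were higher. The count lay between 9 and 12 under all alternatives run. Il33, an alarmin that damaged epithelium and stroma release, read 7.31, 7.78 and 7.88 in the PLKO arrays and 9.35, 9.66 and 9.88 in the shGAL arrays. The lowest shGAL array was more than 1 unit above the highest PLKO array, and the rise was 1.97 ± 0.16, or 3.93 times (adjusted p = 1.79e-08). Il24, a cytokine of the interleukin-10 family made by keratinocytes, read 7.92, 8.12 and 8.31 with PLKO and 9.77, 10.04 and 9.76 with shGAL. Its rise was 1.74 ± 0.22. Tslp, an epithelial cytokine that primes type 2 immunity and excites sensory neurons, read 9.70, 9.84 and 9.58 with PLKO and 10.95, 11.12 and 10.97 with shGAL. The groups again lay apart, with a rise of 1.30 ± 0.13 (adjusted p = 4.37e-07). In scan batch 2 the pair differed by 2.00 for Il33, 1.45 for Il24 and 1.39 for Tslp, and the blocked changes were 1.98, 1.56 and 1.25.

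Il18, a further alarmin of the interleukin-1 family, rose by 0.99 ± 0.15. The ligand Il1a rose by 0.60 ± 0.11, and Il1f9, the older symbol for interleukin-36 gamma, rose by 0.58 ± 0.11. The receptor gene Il1r1 rose by 0.45 ± 0.11. Members that restrain the pathway rose as well. The decoy receptor Il1r2 rose by 0.70, the receptor antagonist Il1rn by 0.63 and Il1f5, which blocks the interleukin-36 receptor, by 0.46. A second bright probe set of Il1f5 was at 0.12. The macrophage growth factor Csf1 rose by 0.65 ± 0.09, and its further probe sets gave 0.43, 0.14 and 0.11. Tnf was called at 0.30 ± 0.10 (adjusted p = 0.0462), a call lost when any 1 of the 6 arrays was left out and with scan batch as a block (adjusted p = 0.111). Il1r1 was not called without PLKO replicate 3 (adjusted p = 0.0699), nor was Il1f5 without shGAL replicate 2. The 2 members that were not called were Il1b, at -0.08 ± 0.14, and Csf2, at -0.08 ± 0.12. Il6 and Csf3 were too dim to test.

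**Figure D3:**
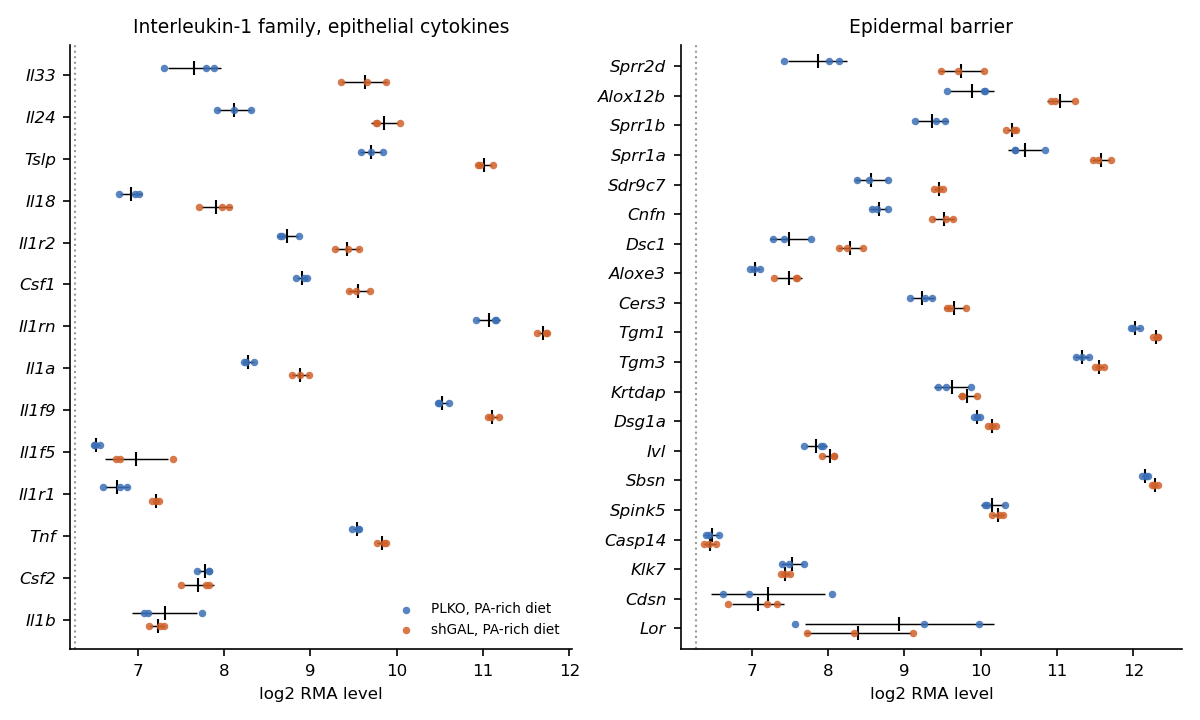
Log2 levels (horizontal axis) of the tested cytokine genes (left) and epidermal barrier genes (right) in the 3 PLKO arrays (blue) and the 3 shGAL arrays (orange) on the PA-rich diet, with black ticks for the mean and lines for 1 SD; the dotted line is the dim level of 6.27. Genes are ordered by change; for Il33 the PLKO arrays end at 7.88 and the shGAL arrays start at 9.35.

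Acute phase and antimicrobial genes were higher in 5 of 9 tested members and lower in 0, against 7.6% of all genes called higher. Their median change was 0.27. Acod1 makes the antimicrobial metabolite itaconate. It read 6.54, 6.51 and 6.63 with PLKO and 9.04, 8.50 and 9.11 with shGAL, which is a rise of 2.32 ± 0.27 or 5.00 times (adjusted p = 2.85e-06). Lcn2, which withholds iron from bacteria, read 7.94, 7.51 and 7.44 with PLKO and 9.37, 8.91 and 9.20 with shGAL. Every shGAL array was above every PLKO array for both genes. The rise of Lcn2 was 1.53 ± 0.16, that of the protease inhibitor Serpina3n 0.62 ± 0.09 and that of Slpi 0.27 ± 0.08. Chil1, a chitinase-like protein, rose by 1.17 ± 0.28. Without shGAL replicate 3 the count was 3 and Chil1 was not called (adjusted p = 0.0652). Slpi lost its call without any 1 of the 6 arrays and with scan batch as a block (adjusted p = 0.0806). In scan batch 2 the pair differed by 2.47 for Acod1 and 1.76 for Lcn2, and the blocked changes were 2.64 and 1.63. S100a9, one chain of the antimicrobial protein calprotectin, read 6.92, 6.90 and 7.28 with PLKO and 8.22, 8.16 and 8.60 with shGAL and rose by 1.30 ± 0.16. Its partner S100a8 averaged 5.67 ± 0.10 (SD, n = 3) with PLKO and 7.76 ± 0.39 with shGAL, and was left out of the test because its mean over all 24 arrays was dim. Both chains are made by neutrophils and by stressed keratinocytes. The mean level over the 6 measured neutrophil markers was 6.38 to 6.52 in the shGAL arrays and 5.81 to 6.00 in the PLKO arrays, a difference that lay in S100a8 and S100a9 themselves. Of the 4 further markers, Camp averaged 7.13 ± 0.15 with PLKO and 7.01 ± 0.04 with shGAL, and Csf3r, Cxcr2 and Ngp were dim in both groups. The part of other cells in these rises was not tested.

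Genes of the cornified envelope and the epidermal lipid barrier were higher in 8 of 20 tested members, against 7.6% of all genes. Of these members 0 were lower, and the median change was 0.25. Sprr2d, a small proline-rich protein that is cross-linked into the envelope and belongs to a family of near-identical genes that can share probes, read 8.02, 7.43 and 8.15 with PLKO and 9.48, 10.05 and 9.71 with shGAL. The groups did not overlap and the rise was 1.88 ± 0.36 (adjusted p = 0.001). Its relatives Sprr1b and Sprr1a rose by 1.05 ± 0.14 and 1.00 ± 0.12. Alox12b, a lipoxygenase that builds the lipid envelope, rose by 1.16 ± 0.16, and Sdr9c7, a dehydrogenase of the same route, rose by 0.88 ± 0.13. The cross-linking enzyme Tgm1 rose by 0.28 ± 0.06. Cnfn rose by 0.85 and the desmosomal cadherin Dsc1 by 0.80, and Dsc1 was not called without PLKO replicate 1 (adjusted p = 0.0539). The late envelope protein Lor was not called at -0.54 ± 0.83, and Ivl was not called at 0.18 ± 0.13. The 16 keratinocyte markers had a mean level of 11.30 to 11.33 in the shGAL arrays and 11.10 to 11.31 in the PLKO arrays. Of these, 2 rose, Sprr1a and Epcam (0.39 ± 0.08), and 1 fell, the epithelial stem cell factor Trp63 (-0.30 ± 0.08), which lost its call without PLKO replicate 3 or shGAL replicate 3 (adjusted p up to 0.0785). Krt5 and Krt14, keratins of the basal layer, were at 0.02 ± 0.10 and -0.05 ± 0.06 and were not called.

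Matrix proteases and their regulators were higher in 6 of 17 tested members and lower in 0, against 7.6% of all genes called higher. Their median change was 0.23. Mmp13, a collagenase, read 8.20, 8.71 and 7.65 with PLKO and 10.33, 10.13 and 10.16 with shGAL. The PLKO arrays were spread over about 1 unit and all lay below the shGAL arrays, with a rise of 2.02 ± 0.25 or 4.05 times (adjusted p = 6.67e-06). Mmp10, a stromelysin, rose by 0.86 ± 0.18, and Plaur, the urokinase receptor, by 0.74 ± 0.08. The gelatinase gene Mmp9 read 8.19, 7.01 and 7.07 with PLKO and 9.65, 9.83 and 7.29 with shGAL. Replicate 3 of shGAL fell inside the PLKO range of Mmp9, the difference in scan batch 2 was 0.22, and the call (adjusted p = 0.0198) was lost without PLKO replicate 2 or 3 or shGAL replicate 1 or 2 (adjusted p up to 0.143) and with scan batch as a block (1.20, adjusted p = 0.0938). For Mmp13 the pair in scan batch 2 differed by 2.51, and the blocked change was 2.24. Without PLKO replicate 2 the count of the list was 3. Adam8 rose by 0.20 ± 0.06 and the inhibitor Timp3 by 0.54 ± 0.18. Adam8 lost its call without PLKO replicate 2 or shGAL replicate 2 or 3 and Timp3 without PLKO replicate 1, 2 or 3 or shGAL replicate 1 or 3, with adjusted p up to 0.104 and 0.215. With scan batch as a block Adam8 was not called (adjusted p = 0.076). Of 21 collagen, laminin and basement membrane genes tested, 1 was called.

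Promoters of the called genes were read for letters that transcription factors are known to bind. The windows, from RefSeq on build GRCm38.p6, ran from 250 bases before to 50 bases after each annotated start, and 133 of the 171 genes chosen for naming had one. The motifs were chosen with the results in view, and a match is a description of the letters alone. The AP-1 motif TGANTCA, bound by Jun and Fos proteins, was present on either strand in 7.81% of all 32851 windows. Those windows belong to 27025 genes. List members are counted as genes, each once if any of its windows held the motif, so shares of windows and counts of genes differ in unit. The AP-1 motif was in 7 of 16 tested barrier genes with a window: 3 that rose, Sprr1a, Sprr1b and Sprr2d, and 4 that were not called, Lor, Ivl, Sbsn and Krtdap. It was also in 3 of 9 protease genes with a window, Mmp10, Mmp13 and Plaur. Of all list members with a window, 7 of 16 barrier genes and 5 of 9 protease genes had been called higher. The 250 bases before the start of Mmp13 (chr9:7272264-7272513, plus strand) and Sprr2d (chr3:92338890-92339139, plus strand) are shown because these were the greatest rises of both lists. Capitals mark the AP-1 motif, which overlaps no other motif searched.
Mmp13: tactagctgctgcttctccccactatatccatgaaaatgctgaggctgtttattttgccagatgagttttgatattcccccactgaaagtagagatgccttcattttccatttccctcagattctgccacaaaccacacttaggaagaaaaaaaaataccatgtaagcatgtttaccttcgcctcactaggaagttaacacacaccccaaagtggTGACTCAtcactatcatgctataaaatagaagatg
Sprr2d: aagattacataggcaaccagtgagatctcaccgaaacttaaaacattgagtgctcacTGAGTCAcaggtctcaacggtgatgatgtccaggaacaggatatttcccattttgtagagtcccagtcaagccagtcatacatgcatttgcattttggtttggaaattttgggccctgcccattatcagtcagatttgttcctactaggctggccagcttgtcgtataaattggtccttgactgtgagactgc

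The interferon response was split. Of 15 tested members 5 were higher and 1 lower, against 7.6% and 4.77% of all genes, while the median of the list was -0.09. Rsad2, the antiviral protein viperin, read 9.09, 9.65 and 9.95 with PLKO and 11.30, 10.98 and 11.20 with shGAL, a rise of 1.59 ± 0.15 or 3.02 times (adjusted p = 1.74e-07). Ifih1, the RNA sensor MDA5, read 7.96, 8.25 and 8.09 with PLKO and 9.12, 9.11 and 9.05 with shGAL. Both genes were higher in every shGAL array, and Ifih1 rose by 1.00 ± 0.10. Ifit1, which binds viral RNA, rose by 0.60 ± 0.13. The synthetase-like gene Oasl1 rose by 0.55, with all PLKO arrays below the dim level, and the chemokine Cxcl10 rose by 0.37. Usp18, which limits interferon receptor signalling, fell by 0.41 ± 0.13. Without PLKO replicate 1 or 2 or shGAL replicate 1 or 2, Cxcl10 was not called, nor was Usp18 without PLKO replicate 1, 2 or 3 or shGAL replicate 2 or 3, with adjusted p up to 0.126 and 0.171. With scan batch as a block Cxcl10 was not called (adjusted p = 0.181). In scan batch 2 the pair differed by 1.25 for Rsad2 and 0.96 for Ifih1, and the blocked changes were 1.56 and 0.96. Further members were near 0 or below: Ifit3 was at 0.03 ± 0.22 and Oasl2 at -0.31 ± 0.11 (adjusted p = 0.0681), neither of them called. Ccl5, a chemokine gene outside the list that interferon also induces, rose by 0.98 ± 0.13.

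The interferon-stimulated response element was searched on both strands as TTTC, any 2 bases and TTTC again. It was present in 3.44% of all windows and in 8 of 11 tested interferon genes with a window. Those 8 included genes that rose, such as Rsad2, Ifit1 and Ifih1, and genes that were not called, such as Ifit3 and Stat2. The 250 bases before the start of Rsad2 (chr12:26456453-26456702, minus strand) and Ifit1 (chr19:34640639-34640888, plus strand) are given as examples of interferon genes that rose, with the element in capitals. It occurs at 1 place in Rsad2, where it overlaps no other motif searched, and at 2 in Ifit1.
Rsad2: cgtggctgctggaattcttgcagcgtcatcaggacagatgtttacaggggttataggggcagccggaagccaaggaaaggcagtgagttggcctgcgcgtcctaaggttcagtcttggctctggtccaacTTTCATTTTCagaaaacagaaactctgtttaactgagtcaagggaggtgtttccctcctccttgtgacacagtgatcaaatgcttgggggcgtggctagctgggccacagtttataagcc
Ifit1: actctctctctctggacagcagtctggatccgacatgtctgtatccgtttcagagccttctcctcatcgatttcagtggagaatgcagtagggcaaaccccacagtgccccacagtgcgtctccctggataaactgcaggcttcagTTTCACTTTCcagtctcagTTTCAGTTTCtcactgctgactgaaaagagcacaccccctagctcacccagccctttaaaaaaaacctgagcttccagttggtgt

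Immediate early genes were lower. Of 23 tested members 11 were lower and 0 higher, against 4.77% of all genes called lower, and all 23 changes were below 0, with a median of -0.27. The count lay between 8 and 13 under the alternatives run, with 8 without PLKO replicate 3. Klf2, a transcription factor that holds cells in quiescence, read 8.56, 8.66 and 8.62 with PLKO and 7.73, 7.78 and 7.80 with shGAL, a fall of 0.84 ± 0.12 (adjusted p = 4.30e-05). Junb, an AP-1 subunit, read 10.09, 10.01 and 10.19 with PLKO and 9.31, 9.52 and 8.94 with shGAL, a fall of 0.84 ± 0.14. Nr4a1, an orphan nuclear receptor, read 11.58, 11.58 and 11.59 with PLKO and 10.89, 10.82 and 10.91 with shGAL. The PLKO arrays of Nr4a1 agreed to 0.01 and the shGAL arrays lay at 61.3% of their level, a fall of 0.71 ± 0.07 (adjusted p = 6.94e-07). Ier2 fell by 0.71 ± 0.12. The relatives Nr4a2 and Nr4a3 fell by 0.42 and 0.45, and Ccn1, a matricellular target of YAP, fell by 0.46. Myc fell by 0.34, Btg2 by 0.31, Dusp2 by 0.31 and Jun by 0.27. Myc and Dusp2 lost their calls without PLKO replicate 3 or shGAL replicate 1, and Jun without PLKO replicate 3 or shGAL replicate 3, with adjusted p up to 0.0674, 0.0751 and 0.0873. Fos, the partner of Jun in AP-1, was at -0.12 ± 0.06 (adjusted p = 0.207) and was not called. In scan batch 2 the pair differed by -0.82 for Klf2, -1.25 for Junb and -0.68 for Nr4a1, and the blocked changes were -0.88, -1.03 and -0.71. Of 11 MAPK feedback genes 1 rose and 2 fell, Spry1 by 0.54 ± 0.09 and Dusp6 by 0.42 ± 0.10.

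Of the Egr factors and their Nab corepressors, 3 of 6 were lower and 0 higher by limma, with 1 higher at an unadjusted p under 0.05. Over all genes, 4.77% were called lower. Egr2, the factor that drives myelination in Schwann cells, was targeted in the human cells of further groups of the series but not in these. It read 11.66, 11.66 and 11.60 with PLKO and 10.90, 10.75 and 11.04 with shGAL. The PLKO arrays were within 0.06 of each other and above all shGAL arrays, and the fall was 0.75 ± 0.11 (adjusted p = 5.41e-05). A second probe set of Egr2 gave -0.82, and the scan batch 2 pair differed by -0.57 and the blocked change was -0.77. Egr1 fell by 0.24 ± 0.06 and Egr4 by 0.37 ± 0.09. Egr3 was not called at -0.19 ± 0.09, and the corepressor Nab2 was not called at 0.21 ± 0.08.

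**Figure D4:**
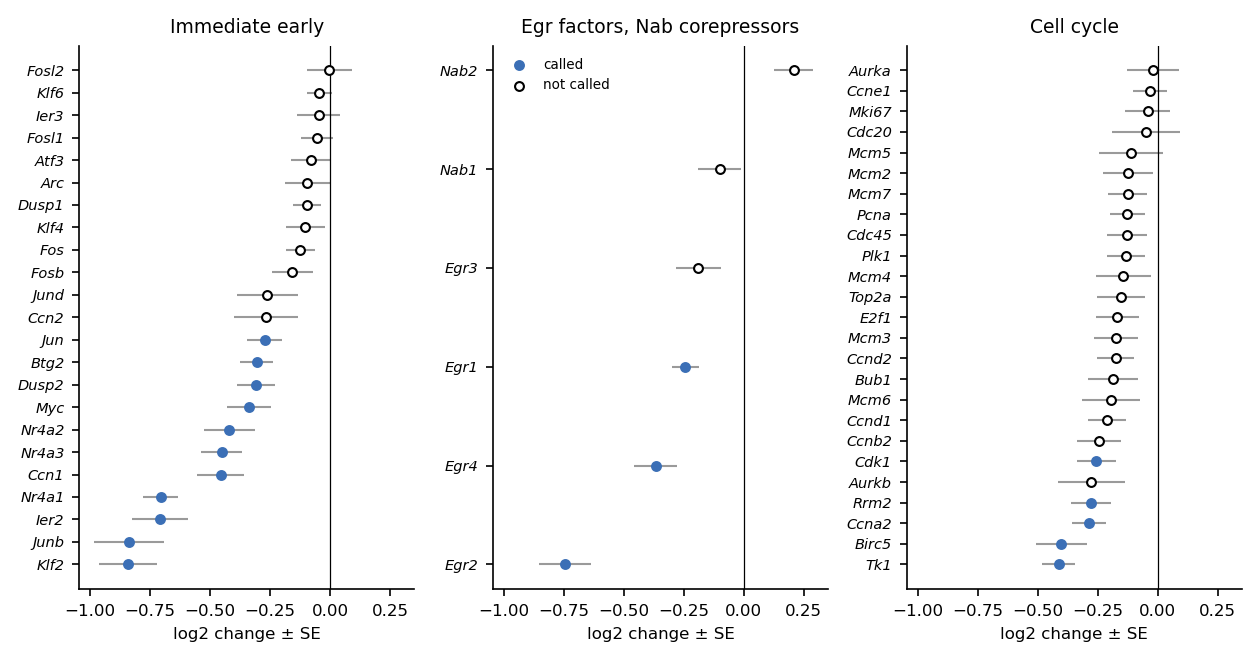
Log2 change, shGAL minus PLKO on the PA-rich diet (horizontal axis), with the standard error as a line, for the tested immediate early genes, Egr factors with Nab corepressors, and cell cycle genes. Filled points were called; all 23 immediate early and all 25 cell cycle points lie below 0, and 11 and 5 of them were called.

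The binding motif of Egr factors, GCGNGGGCG, was searched on both strands and was present in 5.55% of all windows. It was in 8 of 18 tested immediate early genes with a window, Fosb, Fosl2, Dusp2, Nr4a1, Nr4a2, Klf2, Klf4 and Btg2. Of the 8, 5 had been called lower, as had 9 of all 18 genes with a window. The AP-1 motif was in 0 of the 18 genes and the CRE motif TGACGTCA in 2. The bases before the start of Nr4a1 (chr15:101266596-101266845, plus strand) and Klf2 (chr8:72318812-72319061, plus strand) are shown as the members with a motif that fell most. Capitals mark the Egr motif, which in Nr4a1 lies on the opposite strand and therefore reads as its reverse complement.
Nr4a1: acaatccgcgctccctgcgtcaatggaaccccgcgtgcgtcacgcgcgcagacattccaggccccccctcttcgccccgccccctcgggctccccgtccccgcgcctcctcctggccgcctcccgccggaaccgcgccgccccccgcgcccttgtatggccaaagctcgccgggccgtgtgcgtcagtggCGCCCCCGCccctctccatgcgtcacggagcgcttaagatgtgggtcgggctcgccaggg
Klf2: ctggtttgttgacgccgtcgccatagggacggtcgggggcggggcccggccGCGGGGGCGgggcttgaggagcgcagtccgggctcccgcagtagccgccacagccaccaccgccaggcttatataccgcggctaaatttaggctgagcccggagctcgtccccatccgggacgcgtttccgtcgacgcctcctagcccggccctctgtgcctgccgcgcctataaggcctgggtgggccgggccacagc

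Cell cycle genes were lower in 5 of 25 tested members, against 4.77% of all genes called lower, and all 25 changes were below 0 with a median of -0.17. Tk1, a thymidine kinase of S phase, fell by 0.41 ± 0.07 (adjusted p = 2.46e-04). Birc5, the inhibitor of apoptosis survivin, fell by 0.40 ± 0.11, and Ccna2, Rrm2 and Cdk1 fell by 0.29, 0.28 and 0.26. The proliferation marker Mki67 was at -0.04 ± 0.10 and was not called. The count was 2 without PLKO replicate 1 or 2 or shGAL replicate 1, 3 without shGAL replicate 2 or 3, and 8 when the fit held the 6 arrays alone. Of the p53 targets 3 of 13 rose and 4 fell, beside 7.6% of all genes called higher. Among them the receptor gene Eda2r rose by 0.99 from a dim level, and the death receptor gene Fas fell by 0.63 ± 0.09.

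Genes of secreted signals were called in both directions, beside 7.6% of all genes called higher and 4.77% called lower. Inhba, which encodes activin A, read 9.37, 9.29 and 9.03 with PLKO and 10.47, 10.78 and 10.38 with shGAL and rose by 1.32 ± 0.22 (adjusted p = 2.47e-04). Its antagonist Fst rose by 0.55 ± 0.09. Of 21 TGF-beta and BMP genes tested, 4 rose and 4 fell, and the BMP target genes Id1, Id2 and Id3 fell by 0.57, 0.47 and 0.40. Of 19 Wnt genes 5 fell and 0 rose, with a median of -0.12. They were the inhibitors Sostdc1, Dkk3 and Sfrp1, the receptor Fzd1, which fell by 0.51, and the transcription factor Lef1, which fell by 0.52. The Wnt count was 3 without PLKO replicate 1 or shGAL replicate 1 or 3. Id3 lost its call without PLKO replicate 1 or 2 or shGAL replicate 1 or 2 (adjusted p up to 0.109) and with scan batch as a block (adjusted p = 0.0525). Dll1, a Notch ligand, read 10.80, 10.80 and 10.88 with PLKO and 10.19, 10.04 and 9.94 with shGAL. The groups did not overlap, and Dll1 fell by 0.77 ± 0.09 (adjusted p = 3.01e-06). Lfng, which modifies Notch receptors, fell by 0.57 ± 0.11. In the EGF receptor list 3 of 9 genes rose: the receptors Egfr (0.41) and Erbb3 (0.23) and the ligand Nrg1 (0.42). Of 5 further bright probe sets of Egfr, 4 were higher, at 0.78, 0.54, 0.30 and 0.28, and 1 was at -0.27. The count was 1 without PLKO replicate 1 or shGAL replicate 2 and 1 with scan batch as a fixed block, Egfr being called in all 3 settings.

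Galanin genes themselves were not called. Mouse Gal read 7.32, 7.08 and 7.19 with PLKO and 7.15, 7.10 and 6.99 with shGAL. The arrays overlapped, and the change was -0.11 ± 0.10 (adjusted p = 0.51). The hairpin acted in the human cells, so mouse Gal does not check the silencing. The receptor gene Galr3 was at -0.09 ± 0.10 (adjusted p = 0.612), and Galr1 and Galr2 were too dim to test. Of 9 galanin and neuropeptide genes tested, 0 were called by limma and 0 had an unadjusted p under 0.05. Among 7 genes of the calcitonin peptide family and adrenomedullin, Calcb alone was called. Its receptor gene Calcrl was at 0.34 ± 0.21 and the coreceptor gene Ramp1 at -0.02 ± 0.06.

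Genes of nerves were called in both directions: 3 of 11 neurotrophic genes, 6 of 27 axon guidance genes and 3 of 9 Schwann cell markers, against 12.4% of all genes. Of the neurotrophic genes, Gdnf rose by 0.44 ± 0.10, and the receptors Ntrk3 and Ngfr fell by 0.61 ± 0.13 and 0.35 ± 0.11. Further bright probe sets of Ntrk3 were at -0.11, -0.07 and -0.19. Ngfr lost its call without PLKO replicate 1 or 3 or shGAL replicate 1, 2 or 3 (adjusted p up to 0.13) and with scan batch as a block (adjusted p = 0.0785). Among the axon guidance genes 4 rose and 2 fell. Sema4d, a semaphorin, rose by 0.61 ± 0.09 and Sema6a by 0.44 ± 0.09. A second bright probe set of Sema4d was at 0.15. The Eph receptor Epha2 rose by 0.43, and the ephrin Efna5 and the netrin Ntn4 fell by 0.41 and 0.41. Ntn4 lost its call without PLKO replicate 2 or shGAL replicate 2 (adjusted p up to 0.0842) and with scan batch as a block (adjusted p = 0.0582). The Schwann cell factor Sox10 averaged 7.55 ± 0.11 (SD, n = 3) with PLKO and 7.57 ± 0.05 with shGAL. Of the Schwann cell markers, Erbb3 rose and Sox2 and Ngfr fell. Erbb3 lost its call without PLKO replicate 1 or 2 or shGAL replicate 2 or 3 (adjusted p up to 0.0916) and with scan batch as a block (adjusted p = 0.109). It was also not called with all probe sets averaged, and its second bright probe set was at 0.06. Of 7 myelin genes, Egr2 alone was called.

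The vascular receptor gene Flt1 rose where the other endothelial genes did not pass the test. It read 9.61, 9.37 and 9.36 with PLKO and 10.95, 10.77 and 10.71 with shGAL, a rise of 1.36 ± 0.17 or 2.57 times (adjusted p = 8.69e-06). The 2 further probe sets of Flt1 gave 1.04 and 0.99. Of 15 pan-endothelial genes tested it was the 1 called, and the mean level over the list was 7.66 to 8.14 in the shGAL arrays and 7.57 to 7.86 in the PLKO arrays. Of 8 mural cell genes 2 fell, against 4.77% of all genes called lower: Acta2 by 0.41 ± 0.09 and Myh11 by 1.10 ± 0.35. Myh11 read 8.39, 8.81 and 7.13 with PLKO and 7.30, 6.58 and 7.16 with shGAL, and the groups overlapped because the third PLKO array was low. In scan batch 2 Myh11 differed by 0.03, and its call (adjusted p = 0.0437) was lost without PLKO replicate 1 or 2 or shGAL replicate 1, 2 or 3 and with scan batch as a block (-0.88, adjusted p = 0.0937). The smooth muscle list had a mean level of 7.55 to 7.80 with shGAL and 7.72 to 8.10 with PLKO. Postn, a matrix protein of fibroblasts, fell by 0.75 ± 0.23 and was not called without PLKO replicate 1 or shGAL replicate 2 or 3 (adjusted p up to 0.233). The mean level over 11 fibroblast markers was 6.51 to 6.77 with shGAL and 6.53 to 7.44 with PLKO, and 0 of the 5 bright enough to test were called by limma, with 2 lower at an unadjusted p under 0.05.

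Genes of sterol synthesis were called in 1 direction. Of 17 tested members of the cholesterol list 8 were higher and 0 lower, against 7.6% of all genes called higher. Their median change was 0.31. Sqle, the squalene epoxidase of sterol synthesis, read 8.83, 9.06 and 9.02 with PLKO and 9.74, 9.70 and 9.79 with shGAL. The groups lay apart and the rise was 0.77 ± 0.09 (adjusted p = 7.01e-06). The mevalonate decarboxylase Mvd rose by 0.55, the isomerase Idi1 by 0.52 and the farnesyl diphosphate synthase Fdps by 0.51. Fdft1 rose by 0.46, Cyp51 by 0.43, Nsdhl by 0.40 and Msmo1 by 0.37. A second bright probe set of Msmo1 was at -0.32 and one of Cyp51 at -0.03. The regulators Srebf2 and Insig1 were at 0.04 ± 0.09 and -0.09 ± 0.16 and were not called. The count was 5 without PLKO replicate 1 or shGAL replicate 3. Msmo1 lost its call without PLKO replicate 1 or 3 or shGAL replicate 1, 2 or 3 and Idi1 without shGAL replicate 3, with adjusted p up to 0.184 and 0.0622. Fdft1 lost its call without PLKO replicate 1 or 2 or shGAL replicate 3 (adjusted p up to 0.153). Nsdhl lost its call without PLKO replicate 1 or shGAL replicate 2 (adjusted p up to 0.0986). With all probe sets averaged, neither Cyp51 nor Msmo1 was called, Msmo1 being at 0.02. The SREBP motif, searched as TCACNCCAC on both strands, was in 0 of 12 genes of the list with a promoter window and in 1.24% of all windows.

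Of 17 genes of fatty acid uptake and oxidation tested 3 rose and 1 fell, and of 17 genes of fatty acid synthesis 2 rose and 1 fell. Over all genes, 7.6% were called higher and 4.77% lower. Cpt1a, the palmitoyltransferase that admits fatty acids to mitochondria, read 9.34, 9.37 and 9.36 with PLKO and 8.44, 8.64 and 8.51 with shGAL. The PLKO arrays agreed within 0.03 and lay above all shGAL arrays, and the fall was 0.82 ± 0.10 (adjusted p = 1.10e-05). Its partner Cpt2 rose by 0.53 ± 0.12. Decr1, a reductase for the oxidation of unsaturated fatty acids that was in neither list, fell by 0.75 ± 0.08. The lipid droplet protein Plin2 rose by 0.46, and the fatty acid binding protein Fabp4, found in fat and endothelial cells, rose by 1.24 ± 0.35. The call of Fabp4 was lost without PLKO replicate 1, 2 or 3 or shGAL replicate 1 or 3 and that of Plin2 without PLKO replicate 1 or 2 or shGAL replicate 2 or 3, with adjusted p up to 0.118 and 0.123. With scan batch as a block Plin2 was not called (adjusted p = 0.103). Of the 4 further adipocyte markers, Pparg averaged 7.35 ± 0.07 with PLKO and 7.31 ± 0.18 with shGAL, and Adipoq, Lep and Lpl were dim. Elovl4, which makes very long chains for the skin barrier, rose by 0.67 ± 0.11, and the desaturase Fads1 fell by 0.43 ± 0.09. Of 23 oxidative phosphorylation genes 1 was called, and of 18 ribosomal protein genes 0 were called by limma, with 2 lower at an unadjusted p under 0.05.

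Several stress lists had calls in both directions, beside 7.6% of all genes called higher and 4.77% called lower. The haem oxygenase Hmox1, an Nrf2 target, read 9.65, 9.94 and 9.67 with PLKO and 10.44, 10.31 and 10.25 with shGAL and rose by 0.58 ± 0.09. Of 12 Nrf2 targets 3 rose and 2 fell, with Srxn1 at 0.64 and Gclm at -0.47. Among 24 genes of the unfolded protein and integrated stress responses 3 rose and 2 fell, with Xbp1 at 0.42, Edem1 at 0.38, Sesn2 at 0.32, Ddit3 at -0.36 and Psat1 at -0.35. Sesn2 lost its call without PLKO replicate 1 or 2 or shGAL replicate 2 or 3 (adjusted p up to 0.0848) and with scan batch as a block (adjusted p = 0.0689). Of 16 clock genes 2 rose and 3 fell. The repressor Cry1 rose by 0.76 ± 0.10 and the activator Npas2 by 0.53, with a second bright probe set of Npas2 at 0.09. Nr1d2 fell by 0.40 ± 0.08, Rora by 0.41 and Tef by 0.35. Of 25 hypoxia and glycolysis genes 3 rose and 2 fell, and Pdk1, which closes the entry of pyruvate into mitochondria, fell by 0.58 ± 0.13.

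The same hairpins were compared on the control diet in 6 other arrays. There 2013 genes differed between shGAL and PLKO, 17% of those tested, with 847 higher (7.15%) and 1166 lower (9.84%). Of the 1465 genes called on the PA-rich diet, 678 were also called on the control diet with the same sign. That is 46.3% of the PA-rich calls and 33.7% of the control diet calls. A further 17 were called on both diets with opposite signs, and 770 were called on the PA-rich diet alone. The difference between the diets was tested itself as an interaction, which called 158 genes, 1.33% of those tested. In 120 (1.01%) the difference was more positive on the PA-rich diet and in 38 (0.321%) more negative. Of the 158, 86 were among the PA-rich calls, 65 of them higher and 21 lower with shGAL. The interaction count rested on single arrays: it was 82 without shGAL control diet replicate 2 and 343 without the third control diet array of the EGR2 hairpin shEGR2_38.9, which enters through the shared variance.

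Several of the greatest changes were as large on the control diet, and their interaction was not called. Mmp13 rose by 2.68 there, against 2.02 on the PA-rich diet. Il24 rose by 1.80 against 1.74, Flt1 by 1.29 against 1.36, and Inhba by 1.36 against 1.32. Among the falls, Egr2 changed by -0.78 against -0.75 and Klf2 by -1.02 against -0.84. Sox2 changed by -1.33 against -1.11 and Hpgd by -1.56 against -1.04. The standard error of the interaction was 0.15 for Egr2 and 0.35 for Mmp13, and a missed call does not show that the diets act alike.

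Several alarmin and antimicrobial genes had a hairpin difference that depended on the diet. For Il33 the control diet means were 8.09 ± 0.17 (SD, n = 3) with PLKO and 8.34 ± 0.32 with shGAL, against 7.66 ± 0.31 and 9.63 ± 0.26 on the PA-rich diet. The hairpin difference was greater on the PA-rich diet by 1.73 ± 0.22 (adjusted p = 1.83e-04). Acod1 averaged 7.86 ± 0.49 with PLKO and 8.20 ± 0.39 with shGAL on the control diet, and 6.56 ± 0.07 and 8.88 ± 0.33 on the PA-rich diet. Its PLKO arrays were thus low on the PA-rich diet, and the interaction was 1.98 ± 0.38. Lcn2 was at 8.88 ± 0.15 and 8.57 ± 0.04 on the control diet and at 7.63 ± 0.27 and 9.16 ± 0.24 on the PA-rich diet, in the same order. The hairpin difference of Lcn2 went from -0.31, which was not called, to 1.53. For Ifih1, Ifit1, Serpina3n and Tchh the sign turned: shGAL was called lower on the control diet (-0.53, -0.80, -0.58 and -0.95) and higher on the PA-rich diet. The sterol genes Idi1, Fdps and Cyp51 did the same, with Idi1 at -0.64, Fdps at -0.35 and Cyp51 at -0.33 on the control diet.

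Among the genes lower on the PA-rich diet, Cpt1a was at 8.96 ± 0.11 with PLKO and 8.89 ± 0.14 with shGAL on the control diet, and at 9.36 ± 0.02 and 8.53 ± 0.10 on the PA-rich diet, an interaction of -0.76 ± 0.15 (adjusted p = 0.00865). Decr1 and Dll1 had hairpin differences of 0.02 and 0.02 on the control diet, neither called, and of -0.75 and -0.77 on the PA-rich diet. Sostdc1 changed by -0.28 on the control diet, an interaction of -0.90 ± 0.16. Hmox1 rose on both diets, by 1.46 on the control diet, so that its interaction was -0.88 ± 0.13.

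**Figure D5:**
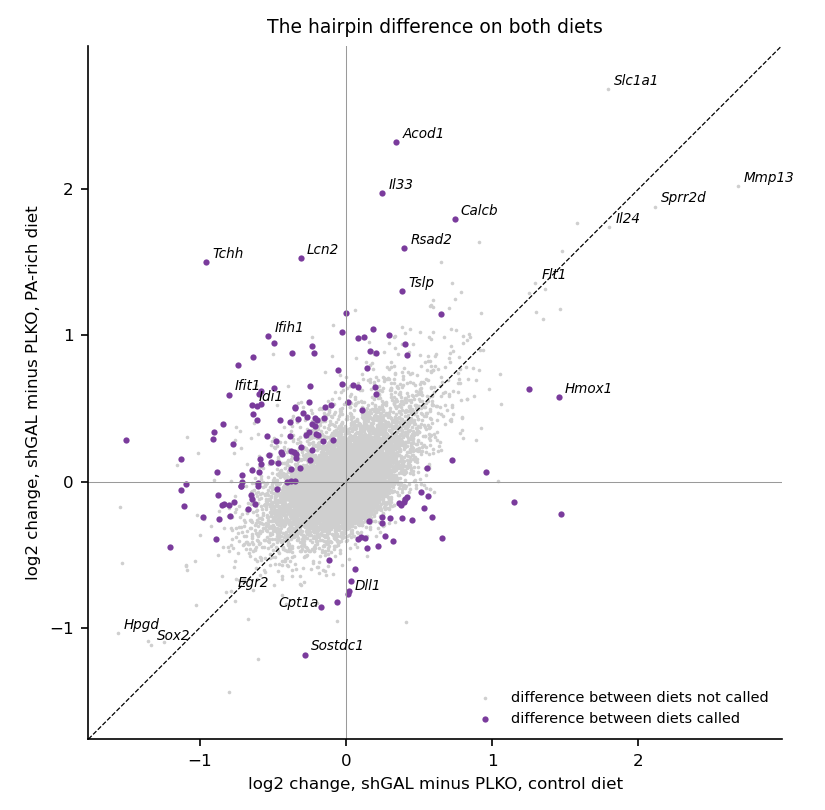
Log2 change, shGAL minus PLKO, of each tested gene on the PA-rich diet (vertical axis) against the control diet (horizontal axis); the dashed line marks equal change. The 158 genes whose change differed between the diets are purple; Il33 lies at 0.25 and 1.97, while Mmp13, at 2.68 and 2.02, is grey because its difference between the diets was not called.

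On the PA-rich diet shGAL could also be set against both EGR2 hairpins, shEGR2_40.9 and shEGR2_38.9, with the same shGAL arrays. That comparison called 1947 genes, 16.4% of those tested, with 966 higher (8.16%) and 981 lower (8.28%) with shGAL. It shares its shGAL side with the main one, so values are given side by side. Il33 averaged 7.36 and 8.02 with the EGR2 hairpins, and shGAL was higher by 1.94 ± 0.13 (adjusted p = 1.34e-09). Calcb was higher with shGAL by 1.89 ± 0.12 and Tslp by 1.29 ± 0.11. The change of Sostdc1 against the EGR2 hairpins was -1.23 ± 0.10. Egr2 averaged 11.82 and 11.36 with the EGR2 hairpins, and its change was -0.70 ± 0.09 (adjusted p = 1.63e-05). For Tchh, by contrast, the EGR2 hairpins read 9.37 and 8.38, and the change of 0.25 ± 0.23 was not called (adjusted p = 0.547). Dsc1 (-0.12 ± 0.17), Nsdhl (0.02 ± 0.09) and Tubb3 (-0.03 ± 0.09) were likewise not called against the EGR2 hairpins. Hmox1 read 11.18 with shEGR2_40.9 and 9.32 with shEGR2_38.9, on either side of the shGAL mean of 10.33.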

How the data were processed

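Biotin-labelled cDNA, amplified from total RNA per the labels' protocols, was read on Affymetrix mouse arrays. The deposited values are log2 values that the authors made with RMA in affy, versions not given, per the submitters' processing notes. RMA equalises the distribution of all arrays, so a shift common to most genes cannot be seen. There is no read depth behind such values, and precision is set by how many arrays there are.

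Of 45141 probe sets, the 28898 with 1 gene symbol were used. The probe set with the highest mean stood for a gene, and genes were left out as dim where the mean over 24 arrays was under 6.27, percentile 40 of all probe set means, which kept 11844 of 17097. One linear model of 8 group means over 24 arrays was fitted with limma 3.58.1 in R 4.3.3, with two-sided moderated tests (16 residual and 6.21 prior degrees of freedom) and Benjamini-Hochberg adjustment over 11844 genes within each of 4 comparisons, threshold 0.05. Changes have the standard error of the model, group levels the SD of 3 arrays.

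Named genes were Gal, its receptors and Egr2, the 20 greatest rises and 20 greatest falls among called genes whose arrays did not overlap, and called members of 51 gene lists. List members that were not called, S100a8 and the markers of the label check are given for comparison. The comparison, the lists and the rules were chosen with earlier results of these data known. The main fit did not pair arrays by replicate number. Residuals of same-numbered shGAL and PLKO arrays correlated at 0.33, -0.12 and 0.09, and those of differently numbered arrays at -0.34 to 0.27. With 3 arrays a group, these values cannot decide whether the numbers mark pairs. On simulated data with this design 78 of 100 genes changed by 0.5 and 100 of 100 changed by 1 were called. There were 11 false calls among 189, and 0 genes were called by limma when none was changed. These rates describe the simulated data alone, where far fewer genes changed than the 1465 called in the real arrays. Whether they hold for the real arrays, technical replicates scanned in 6 batches, was not tested. The alternatives were scan batch and replicate blocks, the arrays in the fit, the dim filter, the choice of probe set, the normalization, an intensity trend and leaving out single arrays.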

Additional observations from a re-analysis of the deposited data

Results flagged for a closer look

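For 34 of the genes named in the comparison of shGAL with PLKO, the hairpin difference on the PA-rich diet differed from that on the control diet by the interaction test in limma (adjusted p under 0.05). Each value is the PA-rich difference minus the control diet difference, on the log2 scale, and 27 were positive and 7 negative. The share of all tested genes with such a difference was 1.33%.

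Among alarmin, antimicrobial and acute phase genes, the values were 1.98 for Acod1, 1.84 for Lcn2, 1.73 for Il33, 1.20 for Serpina3n and 0.92 for Tslp. In the chemokines, Ccl5 differed by 0.90 and Ccl20 by 0.49. Ccl20 fell with shGAL on both diets, by -0.89 with control food and by -0.39 with the PA-rich one. The interferon genes Ifih1, Ifit1 and Rsad2 differed by 1.53, 1.40 and 1.20.

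Of the barrier and hair follicle genes, Tchh differed by 2.46, Dsc1 by 1.53, Alox12b by 1.15, Sdr9c7 by 1.10 and Sprr1b by 0.86. The 4 sterol genes Idi1, Fdps, Cyp51 and Nsdhl differed by 1.17, 0.86, 0.76 and 0.63. Me1, which makes reducing power for lipid synthesis, differed by 0.53. The remaining positive values were 1.05 for Calcb, 0.86 for Eda2r, 0.82 for Cry1, 0.65 for Sema6a, 0.62 for Xbp1, 0.58 for Tubb3 and 0.53 for Fst.

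The negative values belonged to Sostdc1 (-0.90), Hmox1 (-0.88), Dll1 (-0.78), Decr1 (-0.77), Cpt1a (-0.76), Nr1d2 (-0.73) and Akr1e1 (-0.68). Nr1d2 was called higher with shGAL on the control diet (0.32) and lower on the PA-rich diet (-0.40).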

How the results depend on the processing

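Of the 169 named genes called on the PA-rich diet, 111 kept the call under every alternative in which the gene was tested. The call was lost under at least 1 alternative for 58, and 0 changed sign. In scan batch 2, with 1 array each and no test, 168 of the 169 had the same sign. That pair is part of the compared arrays, so its sign is fixed in advance for genes whose groups do not overlap. The count of called genes ran from 968 to 2097 when single arrays were left out; 968 came without PLKO PA-rich replicate 3 and 2097 without shEGR2_38.9 control replicate 3. The 152 called list members ran from 119 to 185. On the control diet the count ran from 1432 to 2801 with single arrays left out, and fitted on the compared arrays alone it was 1202 instead of 2013. The interaction count of 158 ran from 82 to 343 and was 105 on the compared arrays alone; it was 85 without PLKO PA-rich replicate 1, 93 without shGAL PA-rich replicate 3, and 90 and 317 without shGAL control replicates 1 and 3. Against the EGR2 hairpins the 1947 calls ran from 1292, without shGAL PA-rich replicate 3, to 2608, and were 3279 on the compared arrays alone. With scan batch as a fixed block, 23 of the 169 named genes lost the call and the counts were 1308 for the hairpins on the PA-rich diet, 204 for the interaction and 1653 against the EGR2 hairpins. The cause of these shifts was not tested, beyond the fewer arrays in each fit. The array shEGR2_38.9 control replicate 3 stood apart in quality. Its 3' minus 5' difference was 0.76 for the Gapdh control probe sets and -0.44 for those of actin. For Gapdh the PA-rich arrays lay between -0.06 and 0.04 with PLKO and between -0.004 and 0.08 with shGAL. Its mean correlation with its own group was 0.978. Whether its quality lay behind the higher counts without it was not tested. With the replicate number as a block, the counts were 1494, 2056, 163 and 1948. The share of higher genes among PA-rich calls was 61.4%, 54.1% after a second quantile normalization and 68.2% with array medians subtracted. Arrays give no depth, and values near the dim level understate changes.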

Other observations

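Hyaluronan genes, which shape the pericellular matrix, were called higher in 3 of 13 tested members of the perineuronal net and hyaluronan list on the PA-rich diet, and 0 were called lower (limma; 7.6% of all tested genes were called higher). The synthase Has1 read 8.32, 8.21 and 8.16 with PLKO and 8.62, 8.59 and 8.57 with shGAL and rose by 0.36 ± 0.07 (adjusted p = 6.67e-04). The groups did not overlap. The hyaluronidase Hyal1 read 9.64, 9.74 and 9.66 with PLKO and 10.11, 10.17 and 10.29 with shGAL and rose by 0.51 ± 0.09. Hyal2 was called at 0.27 ± 0.08, a call lost without any one of the 6 arrays. On the control diet Has1 and Hyal1 also rose, by 0.23 and 0.64.

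Heat shock genes were called higher in 3 of 10 tested members and lower in 0, against 7.6% of all tested genes called higher, but 1 member, Bag3, kept its call with each of the 6 arrays left out. The cochaperone Bag3 read 9.08, 9.14 and 9.28 with PLKO and 9.40, 9.70 and 9.72 with shGAL, a rise of 0.44 ± 0.09 (adjusted p = 0.00273). Every shGAL array lay above every PLKO array. Hsph1 was called at 0.30 and Hspa1b at 0.18, but Hsph1 lost its call without PLKO replicate 2 or 3 or shGAL replicate 1 or 3 and Hspa1b without any 1 of the 6 arrays, with adjusted p up to 0.149 and 0.141. Stx1a, a syntaxin of the presynaptic release machinery, read 7.18, 7.07 and 6.91 with PLKO and 7.70, 7.86 and 7.63 with shGAL and rose by 0.68 ± 0.13. Stx1a was the 1 gene called of 10 tested synapse and ion channel genes. The melanosome gene Pmel rose by 0.60 ± 0.12, while the 5 further melanocyte markers measured were dim.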
